A study of Mus musculus with 13 samples.

Results

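The 10 genes described here encode the main steps of insulin signaling, from the receptors to the transcription factors they restrain. They were taken by name as a fixed set, without use of their measured levels, and matched by Ensembl identifier among the 42416 identifiers counted in each library. The set holds the receptors Insr and Igf1r, the adaptors Irs1 and Irs2, the PI3K subunits Pik3r1 and Pik3ca, the kinases Akt1 and Akt2, and the transcription factors Foxo1 and Foxo3. Bulk RNA sequencing covered interscapular brown adipose tissue (iBAT) from 13 mice, with 1 library per mouse. Of these, 8 mice were iFAXLKO (loxP-Axl-loxP, Cre+) and 5 were WT controls, which carried the floxed Axl alleles too but no Cre. Both groups were on ad lib HFD at room temperature and were given tamoxifen every 3 weeks, so diet, drug and floxed alleles were shared. Per the methods of the study, the Cre was Adipoq-CreERT2, which acts in adipocytes once tamoxifen is present and leaves Axl intact in the other cells of the depot. The ages of the mice are not in the labels.

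Insulin and IGF1 bind receptor tyrosine kinases that phosphorylate IRS adaptor proteins, and these recruit PI3K to the plasma membrane. The lipid made by PI3K brings AKT to the membrane, where it is activated, and active AKT phosphorylates FOXO proteins and keeps them out of the nucleus. In brown fat this pathway drives glucose uptake and lipid synthesis and restrains lipolysis, while AXL, itself a receptor tyrosine kinase, can also signal through PI3K and AKT. These steps run through phosphorylation and localization of proteins, which mRNA counts do not measure. The comparison therefore asks whether the mRNA of the pathway genes differed between the groups.

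The libraries held 22.44 to 32.6 M counts, and a count of 0 allowed at most 0.092 to 0.134 CPM (counts per M counts of the library, counting error only). The 10 genes had 224 to 13101 counts in each library, so none was near that limit. Axl (ENSMUSG00000002602), the targeted gene, went against its label: it had a mean of 33.1 ± 6.16 CPM in the 8 libraries labelled iFAXLKO and 27.8 ± 3.82 CPM in the 5 WT libraries (SD). Its log2 fold change was 0.25 (SE 0.13, edgeR adjusted p 0.699), so each direction given here rests on the labels and not on a measured loss of Axl. With a fibroblast score (the mean log2 CPM of the fibroblast markers) as a covariate, the log2 fold change of Axl was -0.20, so its direction turned with that score. The score itself was higher in the libraries labelled iFAXLKO, by 0.59 (exact permutation p 0.00699). A fit with this covariate therefore cannot fully separate the score from the group. Brown adipocyte markers were abundant, with a summed level of 7500 to 11500 CPM in the libraries labelled iFAXLKO and 9270 to 14000 CPM in WT. Of these markers 1 of 8 was above WT in the fitted fold change. Fibroblast markers summed to 535 to 1180 CPM against 387 to 693 CPM, with 8 of 8 markers above WT in the fitted fold change. For macrophage markers the sums were 132 to 264 CPM against 112 to 162 CPM, also with 8 of 8 above WT. Endothelial markers summed to 798 to 1210 CPM against 682 to 955 CPM, with 6 of 7 above WT. Skeletal muscle markers varied most, from 3.07 to 5470 CPM against 22.8 to 3760 CPM, with 0 of 12 above WT. No marker of these lists was called and none was at 0, and in bulk tissue fewer cells of a type and less RNA per cell cannot be told apart.

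None of the 10 genes was called between the groups: 0 passed an adjusted p of 0.05 in edgeR in either direction, where 0.127% of the 13360 genes tested did (0.0973% were higher with the iFAXLKO label and 0.0299% lower). With at least a 2-fold change as well the count was 0 too, beside 0.0898% of all genes. All 10 passed the filter on low counts. At an unadjusted edgeR p under 0.05 the count was also 0, against 7.38% of all genes. Neither DESeq2 nor limma-voom called any of them after adjustment. Before it, Pik3r1 was under 0.05 in both (p 0.0270 in DESeq2, adjusted 0.494, and p 0.0396 in limma-voom, adjusted 0.409). Insr was under 0.05 in limma-voom alone (log2 fold change -0.21, p 0.00509, adjusted 0.252). Fitted fold changes were positive for 7 genes and negative for 3, with a median of 0.08 on the log2 scale, beside -0.01 over all genes tested. For 7 of the 10 genes the 95% interval of the difference lay within 1.5-fold in both directions. Irs2, Pik3r1 and Foxo1 were the exceptions, with upper bounds of 2.36-fold, 2.05-fold and 1.84-fold. The 2 groups overlapped in the CPM range for every one of the 10 genes, where 0.434% of all genes tested had ranges that did not overlap.

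**Figure D1:**
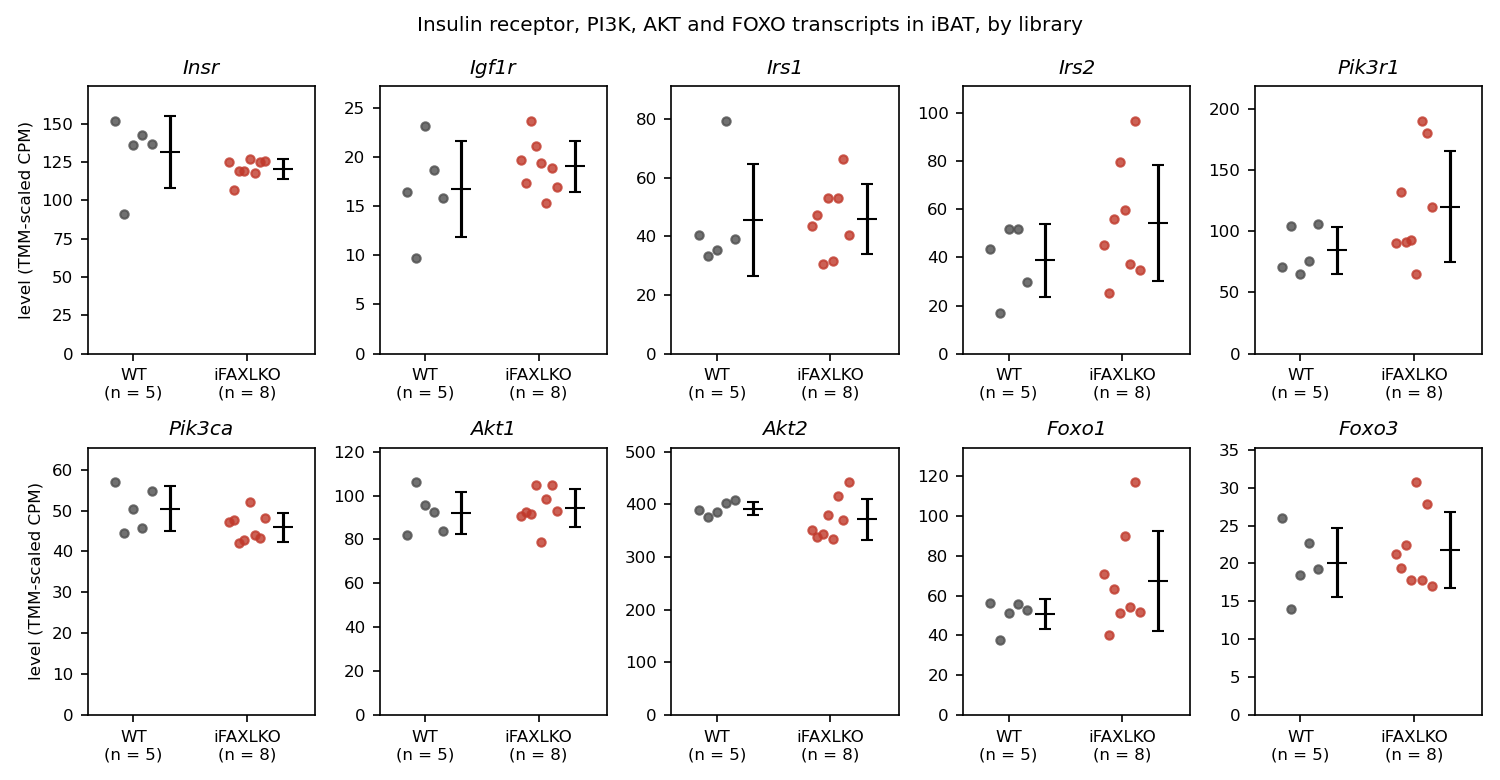
Level of each of the 10 genes, in CPM scaled with TMM factors, for the 5 WT libraries (grey) and the 8 libraries labelled iFAXLKO (red), with mean ± SD beside the points. The groups overlap in every panel, and the points are most spread for Irs2, Pik3r1 and Foxo1 in the libraries labelled iFAXLKO.

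**Figure D2:**
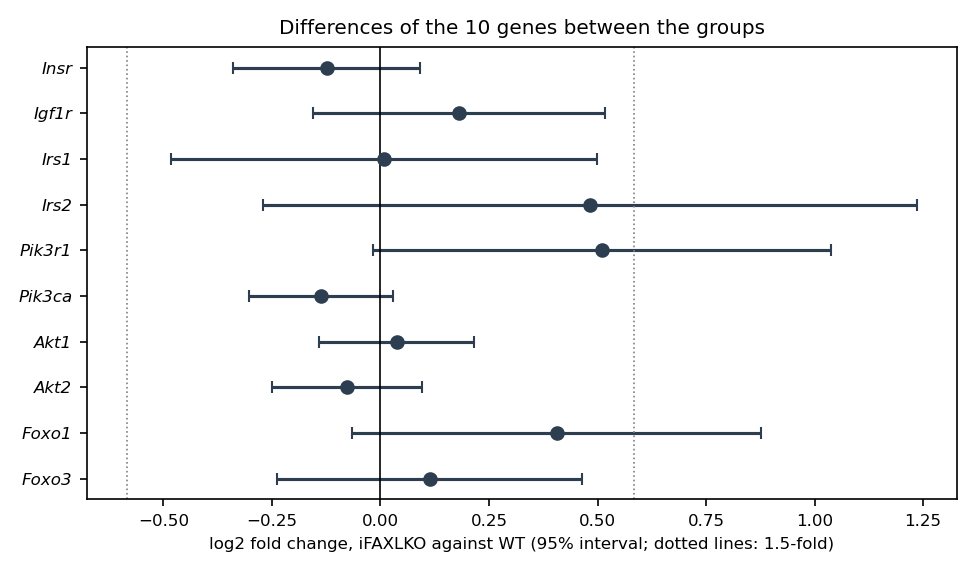
Fitted log2 fold change of each gene, libraries labelled iFAXLKO against WT, with its 95% interval, and dotted lines at 1.5-fold in each direction. Every interval includes 0, and those of Irs2, Pik3r1 and Foxo1 reach past the upper dotted line.

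Insr (ENSMUSG00000005534, chromosome 8, 3122061 to 3279617, GRCm38), which encodes the insulin receptor, was at 152, 90.9, 136, 143 and 137 CPM in the WT libraries. In the libraries labelled iFAXLKO it ranged from 107 to 127 CPM with a median of 122. All 8 of these lay below the WT mean, yet the lowest of all 13 libraries was WT replicate 2, so the groups overlapped. The means were 121 ± 6.88 CPM (SD, n = 8) and 132 ± 23.7 CPM (SD, n = 5), which gave a log2 fold change of -0.12 (SE 0.10, 95% interval -0.34 to 0.09, edgeR adjusted p 0.855). Without WT replicate 2 it was -0.23, with an adjusted p of 0.192 in edgeR, and without WT replicate 1 it was -0.067. Insr varied by 5.69% (coefficient of variation) among the libraries labelled iFAXLKO, the smallest spread of the 10 genes in that group.

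Igf1r (ENSMUSG00000005533, chromosome 7, 67952827 to 68233668) encodes the receptor for IGF1, which shares the adaptors of the insulin receptor. Its level was 16.5, 9.74, 23.2, 18.7 and 15.8 CPM in the WT libraries, and 15.3 to 23.7 CPM with a median of 19.2 in those labelled iFAXLKO. The WT values enclosed nearly all of the other group, with WT replicate 2 again the lowest. This gave a log2 fold change of 0.18 (SE 0.16, 95% interval -0.16 to 0.52, edgeR adjusted p 0.871), 0.04 without WT replicate 2 and 0.34 without WT replicate 3. The libraries carry numbers in the labels that fall into a lower range (4 iFAXLKO and 2 WT) and an upper range (4 iFAXLKO and 3 WT). Within these the difference of mean log2 CPM for Igf1r was 0.68 and -0.11, so its direction was not shared by the ranges.

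Irs1 and Irs2 encode the adaptor proteins that carry the signal from either receptor to PI3K, and Irs2 is a known target of FOXO factors. Their promoters are shown because they share letters that were not found in the other promoters matched. The sequences are the 250 bases before the RefSeq start on GRCm38.p6, 5′ to 3′ on the gene's strand (minus for both). Capitals mark the insulin response letters CAAAACAA, read here on the other strand as TTGTTTTG, and the E-box CACGTG, which is its own reverse complement.
Irs2, chr8:11008930-11009179: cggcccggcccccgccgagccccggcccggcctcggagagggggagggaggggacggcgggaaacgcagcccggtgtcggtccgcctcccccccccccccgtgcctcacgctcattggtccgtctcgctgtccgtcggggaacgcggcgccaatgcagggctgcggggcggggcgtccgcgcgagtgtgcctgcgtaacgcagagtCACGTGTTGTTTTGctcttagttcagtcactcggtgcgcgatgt
Irs1, chr1:82291440-82291689: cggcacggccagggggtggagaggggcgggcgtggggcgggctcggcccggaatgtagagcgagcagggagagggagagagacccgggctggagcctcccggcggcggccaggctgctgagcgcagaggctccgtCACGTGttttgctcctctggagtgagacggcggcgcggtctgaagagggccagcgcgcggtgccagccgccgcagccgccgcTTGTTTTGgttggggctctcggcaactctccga
In Irs2 the E-box lay 44 to 39 bases and the insulin response letters 38 to 31 bases before the RefSeq start, so they abutted. In Irs1 they lay 115 to 110 and 33 to 26 bases before the RefSeq start. Gene positions here come from GENCODE, whose outermost start differs. The RefSeq start lies upstream of it by 471 bases for Irs2 and 23 bases for Irs1, so the distances hold for the RefSeq start alone. Promoter windows were matched for 9 of the 10 genes, with 14 windows in all because Akt1, Akt2 and Pik3r1 have several. Among these 14 windows, the insulin response letters stood in those of Irs1 and Irs2 alone, and so did the E-box. On both strands, 2.21% of all 32851 RefSeq windows of this length held the insulin response letters and 6.02% held the E-box. The letters were chosen after the values of the genes had been seen, and a match describes the sequence without showing that a factor binds it.

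Irs2 (ENSMUSG00000038894, chromosome 8, 10984681 to 11008458) was at 43.7, 17.0, 52.0, 51.7 and 29.6 CPM in the WT libraries. The libraries labelled iFAXLKO ranged from 25.2 to 96.9 CPM with a median of 50.5. Of these, 4 lay above the highest WT library, while the other 4 lay within the WT range. The means were 54.3 ± 24.2 CPM (SD, n = 8) and 38.8 ± 15.2 CPM (SD, n = 5), which gave a log2 fold change of 0.48 (SE 0.35, 95% interval -0.27 to 1.24, edgeR adjusted p 0.821, exact permutation p 0.232). Irs2 was the most variable of the 10 between mice of a group, with a biological coefficient of variation of 0.413, higher than in 96.8% of the genes tested. With the fibroblast score as a covariate, the log2 fold change of Irs2 was -0.08. It was 0.29 without WT replicate 2 and 0.31 without iFAXLKO replicate 7, the lowest and the highest library. Without WT replicate 3 it was 0.62, the highest of the fits that left out 1 library.

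Irs1 (ENSMUSG00000055980, chromosome 1, 82233101 to 82291416) was at 40.5, 33.2, 35.2, 79.4 and 39.2 CPM in the WT libraries and at 30.7 to 66.4 CPM with a median of 45.3 in those labelled iFAXLKO. WT replicate 4 was the highest of all 13 libraries, and the other WT libraries lay in the lower part of the range of the other group. The log2 fold change was 0.01 (SE 0.23, 95% interval -0.48 to 0.50, edgeR adjusted p 0.996), and 0.31 without WT replicate 4. With the fibroblast score as a covariate it was -0.52. Across the 13 mice, with group means subtracted, Irs1 and the fibroblast score had a Pearson r of 0.607 (permutation p 0.039, 0.585 adjusted over 30 relations) and a Spearman rho of 0.429 (permutation p 0.165).

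Pik3r1 (ENSMUSG00000041417, chromosome 13, 101680563 to 101768217) encodes the p85α regulatory subunit, which binds phosphorylated IRS proteins and stabilizes the catalytic subunit. Its level in the WT libraries was 70.9, 104, 64.8, 75.6 and 106 CPM, and in the libraries labelled iFAXLKO it ranged from 64.8 to 190 CPM with a median of 106. The highest values were those of iFAXLKO replicates 6 and 7, at 190 and 180 CPM, and 4 of the 8 libraries exceeded every WT library. The means were 120 ± 45 CPM (SD, n = 8) and 84.3 ± 19.4 CPM (SD, n = 5). The log2 fold change was 0.51 (SE 0.25, 95% interval -0.02 to 1.04, edgeR adjusted p 0.690, exact permutation p 0.124). Over the fits that left out 1 library it ranged from 0.39 without iFAXLKO replicate 6 to 0.61 without WT replicate 5. Pik3r1 had the smallest edgeR p of the 10 genes, 0.0571 before adjustment.

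Pik3ca (ENSMUSG00000027665, chromosome 3, 32397671 to 32468486), for the p110α catalytic subunit, was at 56.9, 44.5, 50.3, 45.7 and 54.9 CPM in the WT libraries. It ranged from 42.1 to 52.2 CPM with a median of 45.6 in those labelled iFAXLKO. Here 4 of the 8 lay below the lowest WT library and 1 lay above the WT mean. Pik3ca had a log2 fold change of -0.14 (SE 0.08, 95% interval -0.30 to 0.03, edgeR adjusted p 0.734), or -0.090 without WT replicate 1 and -0.18 without WT replicate 2. Its exact permutation p of 0.0971 was the smallest of the 10 genes.

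Akt2 (ENSMUSG00000004056, chromosome 7, 27591552 to 27640826), the AKT form best known for insulin-driven glucose uptake, was at 390, 376, 385, 402 and 408 CPM in the WT libraries and at 334 to 442 CPM with a median of 361 in the other group. The WT libraries were close together. Of the 8 libraries labelled iFAXLKO, 5 lay below all of them and 2 lay above all of them. The log2 fold change was -0.08 (SE 0.08, 95% interval -0.25 to 0.10, edgeR adjusted p 0.898), and -0.12 without iFAXLKO replicate 8. With group means subtracted, Akt2 and the skeletal muscle score had a Pearson r of -0.68 over the 13 mice (permutation p 0.0125, 0.375 adjusted over 30 relations), which did not pass after adjustment. The r was -0.383 without WT replicate 5 and iFAXLKO replicate 8, so it rested in part on these libraries, and Spearman's rho over all 13 was -0.665 (permutation p 0.0224).

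Akt1 (ENSMUSG00000001729, chromosome 12, 112653821 to 112674884), the form more tied to growth and survival, was at 82.0, 106, 95.8, 92.3 and 83.9 CPM in the WT libraries. Its range in the libraries labelled iFAXLKO was 78.9 to 105 CPM with a median of 92.6, nearly the same as in WT. Akt1 had a log2 fold change of 0.04 (SE 0.08, 95% interval -0.14 to 0.22, edgeR adjusted p 0.967), and from -0.0012 to 0.093 when WT replicate 1 or WT replicate 2 was left out.

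Foxo1 (ENSMUSG00000044167, chromosome 3, 52268336 to 52353221) encodes the forkhead factor that AKT excludes from the nucleus in insulin-stimulated adipocytes. Its promoter is shown as a contrast to those of Irs1 and Irs2, since no insulin response letters, E-box or forkhead letters stood in this window. The 250 bases before the RefSeq start on GRCm38.p6 (plus strand, 5′ to 3′) have the GC box GGGCGG, read as CCGCCC, in capitals.
Foxo1, chr3:52268087-52268336: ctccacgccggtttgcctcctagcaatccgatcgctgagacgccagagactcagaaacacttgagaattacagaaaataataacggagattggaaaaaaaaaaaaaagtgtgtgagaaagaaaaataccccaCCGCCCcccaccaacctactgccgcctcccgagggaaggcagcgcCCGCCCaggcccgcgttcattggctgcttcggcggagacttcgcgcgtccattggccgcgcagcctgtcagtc
The GC box stood in 9 of the 14 windows of the 10 genes and in 32.7% of all windows. The forkhead letters GTAAACA stood in 1 of the 14, a window of Akt1, and in 3.17% of all windows, while their shorter core TAAACA stood in 2 of the 14, that same window and 1 of Akt2, and in 12% of all windows.

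In the WT libraries Foxo1 was at 56.5, 37.9, 51.5, 55.9 and 52.7 CPM. The libraries labelled iFAXLKO ranged from 40.4 to 117 CPM with a median of 58.9. Replicates 7 and 5 were the highest of these, at 117 and 89.8 CPM, and 4 of the 8 exceeded every WT library. The means were 67.4 ± 25.0 CPM (SD, n = 8) and 50.9 ± 7.58 CPM (SD, n = 5), which gave a log2 fold change of 0.41 (SE 0.22, 95% interval -0.07 to 0.88, edgeR adjusted p 0.722, exact permutation p 0.189). Without iFAXLKO replicate 7 it was 0.25, without WT replicate 2 it was 0.32, and with limma-voom and sample quality weights 0.20. Without iFAXLKO replicate 2 it was 0.49, the highest of the fits that left out 1 library. In the lower and the upper range of library numbers the difference of mean log2 CPM was 0.26 and 0.47.

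Foxo3 (ENSMUSG00000048756, chromosome 10, 42181841 to 42276755), a second forkhead factor under AKT control, was at 26.0, 14.0, 18.5, 22.7 and 19.3 CPM in the WT libraries. The other group ranged from 17.0 to 30.7 CPM with a median of 20.3, and 4 of its 8 libraries lay above the WT mean. The log2 fold change was 0.11 (SE 0.17, 95% interval -0.24 to 0.46, edgeR adjusted p 0.938). WT replicate 2 was the lowest of all 13 libraries for Foxo3, as it was for Insr, Igf1r, Irs2 and Foxo1, and it had the highest sum of brown adipocyte markers, 14000 CPM. Without this library the log2 fold change of Foxo3 was 0.0097, without iFAXLKO replicate 5 or 7 it was 0.026 or 0.056, and without WT replicate 1 it was 0.22.

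Levels of different genes were compared per kb of exon. Akt2 was the highest at 53.3 ± 4.56 CPM per kb (SD, n = 13), higher than 94.5% of the genes tested, and Akt1 followed at 22.8 ± 2.13. Each lay above the next gene in 13 of 13 libraries. Pik3r1 at 10.5 ± 4.01, Insr at 9.09 ± 1.14, Irs2 at 7.64 ± 3.46 and Foxo1 at 7.05 ± 2.46 CPM per kb came next. Their order was not stable: Pik3r1 exceeded Insr in 8 of 13 libraries, Insr exceeded Irs2 in 9 and Irs2 exceeded Foxo1 in 6. Pik3ca at 5.25 ± 0.522 and Irs1 at 4.99 ± 1.57 CPM per kb did not differ beyond their spread either, with a mean log2 ratio of 0.12 ± 0.48. Foxo1 lay above Pik3ca in 11 of 13 libraries and Irs1 above Foxo3 in 12. Foxo3 at 2.79 ± 0.623 lay above Igf1r, the lowest at 1.08 ± 0.217 CPM per kb, in 13 of 13 libraries. Igf1r exceeded only 19.6% of the genes tested. Exon length was that of all annotated exons of a gene, so a gene with long unused exons is placed too low.

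**Figure D3:**
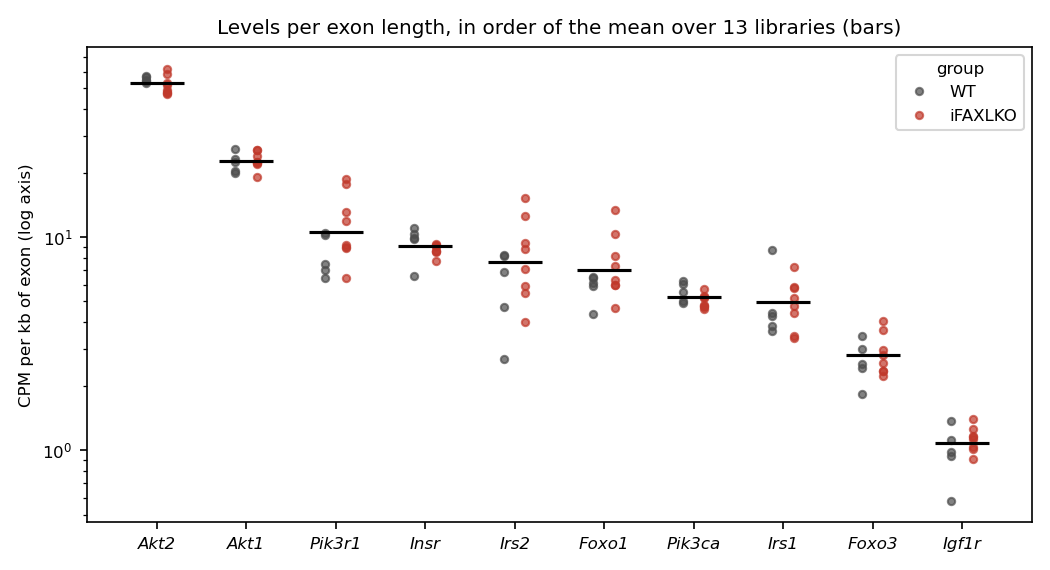
Level per kb of exon on a log axis for each gene in the 5 WT libraries (grey) and the 8 libraries labelled iFAXLKO (red), in order of the mean over the 13 libraries (bars). Akt2 and Akt1 stand above the rest, Igf1r is the lowest, and the points of neighbouring genes from Pik3r1 to Foxo1 overlap.

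Ratios within a library do not depend on the scaling between libraries, and 5 were compared. Igf1r was on average 0.118 of Insr per exon length (0.0878 to 0.163 over the 13 libraries). Its log2 ratio to Insr was -2.96 ± 0.20 (SD, n = 8) in the libraries labelled iFAXLKO and -3.29 ± 0.28 (SD, n = 5) in WT. All 8 libraries lay above the WT mean, and the difference of 0.33 had an exact permutation p of 0.0311, or 0.155 adjusted over the 5 ratios, so it did not pass. The differences in the lower and the upper range of library numbers were 0.69 and 0.05. Pik3ca to Pik3r1, the catalytic against the regulatory subunit, had a log2 ratio of -1.15 ± 0.59 against -0.57 ± 0.39, with an exact permutation p of 0.0754 and an adjusted value of 0.188. For Foxo3 to Foxo1 it was -1.39 ± 0.28 against -1.16 ± 0.15 (exact permutation p 0.129, adjusted 0.215), and for Akt2 to Akt1 1.18 ± 0.15 against 1.30 ± 0.19 (exact permutation p 0.218, adjusted 0.264). Irs2 to Irs1 had the widest spread, at 0.70 ± 0.67 against 0.27 ± 0.61 (exact permutation p 0.264, adjusted 0.264). In 13 of 13 libraries Akt2 exceeded Akt1 per exon length, by 2.02 to 2.79 times.

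How the 10 genes varied together from mouse to mouse was described by the 45 pairs they form. Of the 45 pairs, with group means subtracted, 5 had a Pearson r past the limit after adjustment over the 45 and 9 before it, and 27 were positive. Only 1 of these pairs also passed by Spearman's rho, Foxo1 with Foxo3, with r 0.818 (permutation p 0.00078, adjusted 0.0169) and a rho of 0.879 (p 0.00041 by permutation, 0.0185 adjusted). It was 0.935 without iFAXLKO replicates 2 and 7, the farthest from the median of Foxo1, and 0.71 and 0.90 in the lower and upper ranges of library numbers. Within the libraries labelled iFAXLKO it was 0.848. Mice with more mRNA of one forkhead factor had more of the other.

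Pik3ca and Akt1 went in opposite directions, with r -0.833 (permutation p 0.00113, adjusted 0.0169) and a rho of -0.769 (p 0.00641 by permutation, 0.0721 adjusted). The r was -0.705 without WT replicate 1 and iFAXLKO replicate 5, and -0.842 and -0.851 in the ranges of library numbers. Irs2 had more mRNA where Foxo1 did (r 0.724, permutation p 0.00485, adjusted 0.046, with a Spearman's rho of 0.593, p 0.0427 by permutation, 0.246 adjusted) and where Igf1r did (r 0.729, permutation p 0.00511, adjusted 0.046, with a Spearman's rho of 0.714, p 0.0114 by permutation, 0.0855 adjusted). Without the 2 farthest libraries the r of these pairs was 0.548 and 0.593. Insr and Foxo1 had an r of 0.557 (permutation p 0.00098, adjusted 0.0169) and a rho of 0.714 (p 0.0033 by permutation, 0.0721 adjusted), and the r was 0.449 without the 2 farthest libraries. When each pair was taken without these libraries, 1 pair passed the adjusted limit in place of 5. Igf1r, Irs2, Insr, Foxo1 and Foxo3, the genes for which WT replicate 2 was the lowest library, had a positive r in each of their pairs. Without WT replicate 2 the r of Insr and Igf1r was -0.031 in place of 0.694, that of Igf1r and Foxo3 0.113 in place of 0.458, and that of Igf1r and Foxo1 0.165 in place of 0.355. The r of Foxo1 and Foxo3 was 0.80 without it. The genes share libraries, scaling and the mix of cells, whose part in these relations was not tested. Pairs of other genes were not counted, so no background share stands beside the pairs that passed.

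**Figure D4:**
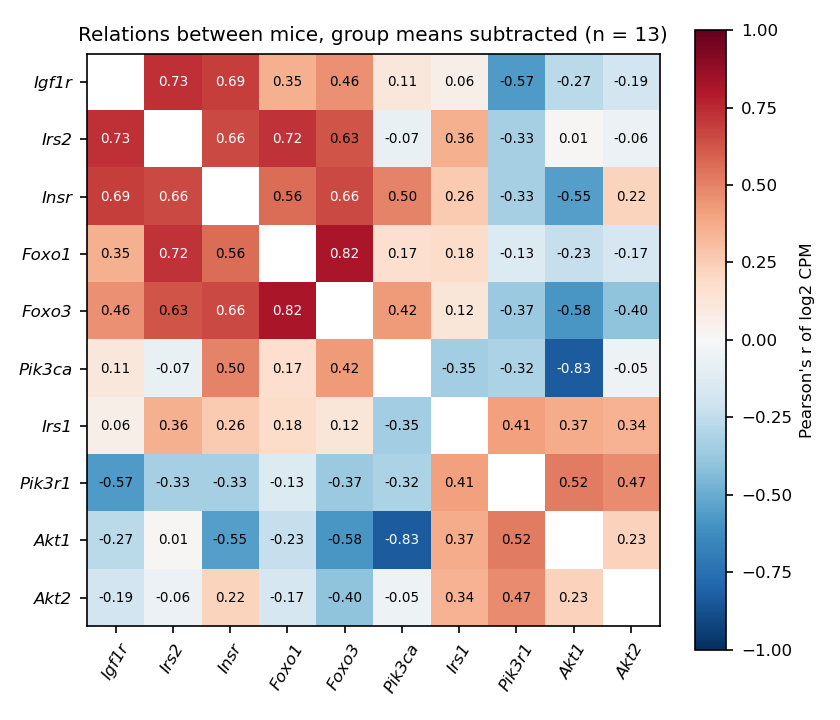
Pearson's r of log2 CPM for each pair of the 10 genes over 13 libraries, after the group means were subtracted, from -1 (blue) to 1 (red). Igf1r, Irs2, Insr, Foxo1 and Foxo3 form a block of positive values, which for Insr and Igf1r rested on WT replicate 2 (r -0.031 without it), and the darkest blue cell is that of Pik3ca and Akt1 at -0.83.

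Over all 13359 other genes tested, those most alike Insr across the libraries, group means subtracted, included Gm27694 (r 0.98) and Ep400 (r 0.97). For Foxo1 they were Mfsd2a (r 0.96), Slc4a8 (r 0.929) and Shb (r 0.927). These were picked as the highest of many, so no test is given. Without the 2 farthest libraries the r with Insr was 0.827 for Gm27694 and 0.698 for Ep400. The r with Foxo1 was then 0.917 for Mfsd2a, 0.95 for Slc4a8 and 0.841 for Shb.

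The rest of the pathway was described by 7 lists with 86 further genes, of which 82 were tested. None was called in edgeR in either direction, with 5 of 82 at an unadjusted p under 0.05, beside 7.38% of all genes. The fold changes were positive for 31 and negative for 51, where 53.6% of all genes tested were negative. Among ligands, adaptors and other proteins near the receptor, 10 of 12 were tested (not Insrr and Irs4), with 5 positive and 5 negative and a median log2 fold change of 0.01. Irs3, an adaptor of rodent fat, had the smallest p there, with a mean of 65.2 ± 10.2 CPM over the 8 libraries labelled iFAXLKO and 76.8 ± 7.0 CPM over the 5 WT libraries (SD), which gave a log2 fold change of -0.24 (SE 0.11, edgeR adjusted p 0.657). Of the brakes on the receptor, 7 of 8 were tested (not Socs1), with 4 positive and a median of 0.03. The phosphatase Ptprf led these, at 2.36 ± 0.788 against 1.59 ± 0.561 CPM (log2 fold change 0.56, SE 0.27, edgeR adjusted p 0.689).

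The 11 other PI3K subunits had 7 positive and 4 negative fold changes and a median of 0.10. Pik3cg, the p110γ subunit that is abundant in leukocytes, had a mean of 1.72 ± 0.305 CPM where WT had 1.32 ± 0.194 CPM (SD, n = 8 and 5), which gave a log2 fold change of 0.38 (SE 0.16, edgeR adjusted p 0.628). The macrophage markers were above WT in all 8 cases as given above, and their part in this difference was not tested. The 12 lipid phosphatases and other brakes on PI3K and AKT had a median of -0.02, and Ppp2ca, a catalytic subunit of PP2A, had the smallest p (log2 fold change -0.13, SE 0.07, edgeR adjusted p 0.732).

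Downstream, 10 of the 12 genes for AKT activation and the mTOR complexes had negative fold changes, with a median of -0.09. Rheb, the GTPase that activates mTORC1, had a mean of 47.4 ± 1.56 CPM where WT had 51.9 ± 3.66 CPM (SD, n = 8 and 5). Its log2 fold change was -0.13 (SE 0.06, edgeR adjusted p 0.651, exact permutation p 0.00233), with 0 of 8 values of that group higher than the mean of WT. The 14 effectors of AKT and mTORC1 had a median of -0.03, and Gsk3a, a kinase that AKT inhibits, had the smallest p (log2 fold change -0.12, SE 0.06, edgeR adjusted p 0.724).

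Of the relatives and regulators of FOXO, 16 of 17 were tested (not Foxo6), with 3 positive and 13 negative and a median of -0.05. Sirt2, a deacetylase that acts on FOXO1 in adipocytes, had the smallest p there. It was at 104 to 123 CPM in the WT libraries and at 95.5 to 102 CPM in those labelled iFAXLKO. The groups did not overlap, as in 0.434% of all genes tested. The means were 115 ± 8.7 CPM (SD, n = 5) and 99.2 ± 2.2 CPM (SD, n = 8), which gave a log2 fold change of -0.21 (SE 0.06, 95% interval -0.34 to -0.08). Its edgeR p was 0.00299 and its adjusted p 0.407, and the exact permutation p of 0.000777 was the smallest that 8 against 5 can give. This exact p is not adjusted for the number of genes in the lists. DESeq2, which called 67 of the 13360 genes, called Sirt2 (log2 fold change -0.21, adjusted p 0.0205). It was the only gene of the 7 lists called by any of the alternatives tried.

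**Figure D5:**
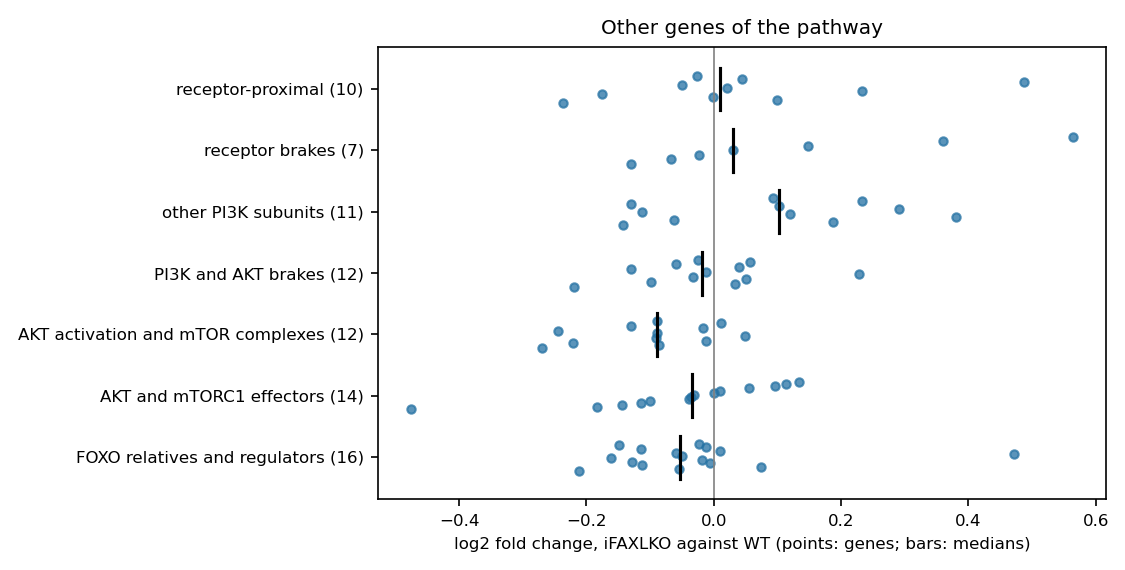
Log2 fold change of the 82 tested genes in 7 lists of the pathway, libraries labelled iFAXLKO against WT, 1 point per gene, with the median of each list as a bar and the number of genes tested in brackets. The medians lie between -0.09 and 0.10, and no point is of a gene called in edgeR.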

How the data were processed

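Poly-A RNA of iBAT from 13 mice was sequenced (TruSeq libraries per the labels). The deposited files hold whole-number counts per Ensembl gene, not normalized. The submitters' processing notes name bcl2fastq 2.20, fastp 0.20.0, STAR 2.7.4a, DESeq2 and GRCm38.p6, whereas the methods of the study name Trim Galore, hisat2 and ribosomal RNA depletion. Which tool counted the reads, and with which strand setting, is not given in the sources used here. Other annotated genes that overlap one of the 10 genes held at most 37 counts in a library.

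Symbols matched 42263 of 42416 identifiers. Positions and exon lengths are from GENCODE M21 (GRCm38), counted from 1. Groups and replicate numbers are those of the sample titles. A gene was tested if it exceeded 1 CPM in 5 or more libraries, which 13360 genes did. TMM factors scaled the libraries, and the groups were compared with the quasi-likelihood F test of edgeR 4.0.16 (R 4.3.3), 2-sided, with Benjamini-Hochberg adjustment over all genes tested and a limit of 0.05. The SE is the size of the log2 fold change over the square root of F, and 95% intervals use the t distribution. Single values and ratios were compared by exact permutation over all splits into 8 and 5, 2-sided. Correlations used log2 CPM (prior count 2), with group means subtracted and 100000 permutations within groups, 2-sided. Ratios used a prior count of 0.5. Promoters are from a RefSeq table, without an entry for Insr. Scripts were tested on simulated data.

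Total counts were 22.44 to 32.6 M per library, with mitochondrially encoded genes at 18.33% to 21.31%. No pair of libraries within a group agreed within sampling noise (chi-square per degree of freedom at least 15.26). The p-values measure the spread between these libraries. Alternatives were DESeq2 1.42.0, limma-voom with sample quality weights (limma 3.58.1), other factors and filters, covariates, a block and leaving out each library. The genes named are the 10 genes, Axl, the tested gene with the smallest edgeR p of each pathway list, any listed gene called, genes of these lists under the filter, and the 3 genes most alike Insr and Foxo1, of which 1 is not reported here. The set of 10 genes made no use of their measured levels, as given above. Even so, the set, the lists and the tests were chosen with earlier results of these data known.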

Additional observations from a re-analysis of the deposited data

Results flagged for a closer look

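In 30 sets of values (the 10 genes and 5 ratios, in each of the 2 groups), 4 values stood apart from the rest of their group by Dixon's criterion, which chance meets in about 1 of 20 sets. For Insr these were iFAXLKO replicate 2 at 107 CPM, with a gap to the next library of 0.534 of the group's range, and WT replicate 2 at 90.9 CPM, with a gap of 0.734. For Irs1 it was WT replicate 4 at 79.4 CPM (0.842 of the range), and for Foxo1 WT replicate 2 at 37.9 CPM (0.731). The log2 fold changes without these WT libraries stand beside each gene above.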

How the results depend on the processing

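Across 230 refits of the 10 genes (10 alternatives and 13 single libraries left out for each), 0 passed the adjusted limit, the lowest adjusted p was 0.192 in edgeR (Insr without WT replicate 2), and 213 kept their sign. The other 17 changed sign. The log2 fold changes with the fibroblast score as a covariate were -0.52 for Irs1, -0.080 for Irs2 and -0.063 for Akt1. For Akt2 and Foxo3 they were 0.02 and -0.057. With this covariate 4 genes in place of 7 had an interval within 1.5-fold. Axl, which is not among the 10 genes or the 230 refits, had -0.20. With limma-voom the log2 fold changes of Irs1 and Foxo3 were -0.17 and -0.021. The upper range of library numbers was not refitted. There the difference of mean log2 CPM was -0.11 for Igf1r and -0.055 for Irs1. Without 1 library Irs1 ranged from -0.087 to 0.31 and Akt1 from -0.0012 to 0.093. The fibroblast score itself differed between the groups, as given above. The cause of these changes was not tested.

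The count of all genes called, 17, was 7 among protein-coding genes alone, 8 with the fibroblast score, 67 with DESeq2 (38 higher and 29 lower) and 14 to 19 without 1 library. In the 7 pathway lists DESeq2 called 1 gene and the other alternatives 0. The Igf1r to Insr difference ranged from 0.28 to 0.45 without 1 library, passing without WT replicate 3 (exact permutation p adjusted over 5 ratios 0.0202), and the Foxo3 to Foxo1 difference from -0.30 to -0.16, passing without iFAXLKO replicate 2 (adjusted 0.0189). Of the 45 pairs, 1 passed without the 2 farthest libraries, in place of 5. Counting depth did not limit the 10 genes, with 224 counts or more in each library. The number of mice and the spread between them set the intervals.

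The labels give both groups replicate numbers 1 to 5 and do not state that these pair the libraries. The correlation of the deviations of libraries sharing a number was 0.392, 0.422, 0.188, 0.181 and -0.614. For libraries with different numbers it ranged from -0.636 to 0.575, so these values do not settle whether the numbers pair the libraries. With the replicate number as a block 7 genes were called, all higher, 0 of the 10 genes among them. iFAXLKO replicates 6, 7 and 8 share their numbers with no WT library, so the fold changes of this fit rest on replicates 1 to 5. Replicates 6 and 7, which thus add nothing to them, were the libraries highest in Pik3r1. The block gave log2 fold changes of 0.16 for Pik3r1, -0.097 for Irs1 and -0.0045 for Akt1. It gave 0.47 for Irs2, 0.31 for Igf1r and -0.17 for Akt2. The edgeR p of these last genes was 0.0106, 0.0286 and 0.048, or 0.305, 0.384 and 0.437 adjusted. For the ratios too, the block used replicates 1 to 5 of each group alone. Its test flipped the signs of 5 differences and cannot give a p below 0.0625, so no ratio could pass.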
